A study of Collinsia rattanii with 18 samples.

Results

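Xyloglucan is a hemicellulose of the primary cell wall of flowering plants, where it coats and links cellulose fibres. It is made in the Golgi apparatus by glycosyltransferases, and in the wall it is cut, rejoined and trimmed by endotransglucosylases, hydrolases and glycosidases, so that the wall can yield and be rebuilt as cells expand. Enzymes of this kind are known from growing petals of other plants.

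The genes described here are the 5 that the study lists under the Gene Ontology term xyloglucan metabolic process: *RCORA41780*, *RCORA191130*, *RCORA202024*, *RCORA205395* and *RCORA38638*. They are 5 of the 46127 genes in the deposited count table, and all 5 were among the 27837 that passed the filter on low counts. The list is not blind to these data, because the study picked its genes from those whose change over bud stages differed between the species in these same libraries. That difference is therefore given only as a description. The sources used here do not say which xyloglucan enzyme each identifier encodes, so no enzyme name or role is given, and other genes under the same term were not analysed here.

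Expression was measured by RNA-seq in pre-anthesis floral buds of *Collinsia linearis*, a predominantly outcrossing annual, and of its highly selfing sister species *Collinsia rattanii*. From each of 3 plants per species, a few whole buds were taken as a sample at bud stages B1, B2 and B3, the early, middle and late parts of bud development, which the study set by organ color and size. This gave 18 libraries in 6 groups of 3. No treatment was applied. Seeds germinated in Tennessee, the plants flowered in Riverside, and those of each species came from 2 populations, with no source used here saying which plant came from which. The organism label names *C. rattanii* for every library, and the species was taken from the sample titles. Whole buds mix all floral organs, so more cells of a kind and more RNA per cell cannot be told apart. The count table pairs no identifier with a gene name, so the tissue was not checked against marker genes. Reads of both species were aligned to the *C. rattanii* genome, so a level difference between species and a difference in how well reads aligned cannot be told apart for a single gene. The study reported no species difference in the percentage mapped uniquely, which is a value per library and not per gene.

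Counts on genes totalled 23831351 to 41451418 per library, with a median of 31489848. Levels are in counts per 1000000 counts (CPM), with library sizes scaled by the trimmed mean of M-values (TMM), a correction for composition. Libraries of *C. linearis* plant 2 at B2 and B3 stood apart, with TMM factors of 0.664 and 0.497 against 0.947 to 1.24 elsewhere, and with 15.6% and 22.8% of their counts in the 50 most abundant genes against 8.11 to 11.2% elsewhere. The scaling raises their CPM values, and the calls that changed without them, an alternative chosen after seeing the data, are given beside the results. CPM does not correct for gene length, which was not used here, so levels are compared within a gene and not between genes.

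Of the 5 genes, 4 rose from B1 to B3 in *C. linearis*, by 18.6-fold to 212-fold, where 2.16% of all tested genes were called higher. None passed the same test in *C. rattanii*, where 0.0144% of all tested genes were called. The study chose the genes on a species difference in stage change, so this contrast was favored in advance. The count of 4 became 2 with the plant as a block and 0 to 4 on leaving out single libraries or plants. Calls over all genes, 1193 in the main fit, were 333 with the block and 2 to 1360 in the leave-outs. The exception in *C. linearis* was *RCORA38638*, which spread the most between plants. The mean level of the 4 rising genes was lower in *C. linearis* than in *C. rattanii* at B1 and higher at B3. None of these 4 passed edgeR's test of a species difference at B1 or B3, where 15.7% and 15% of all tested genes were called. *RCORA41780* passed at B2, where 20% were called, and *RCORA38638*, with 1 count in *C. rattanii*, passed at B3. DESeq2 called *RCORA205395* at B1 and all 5 genes at B3.

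**Figure D1:**
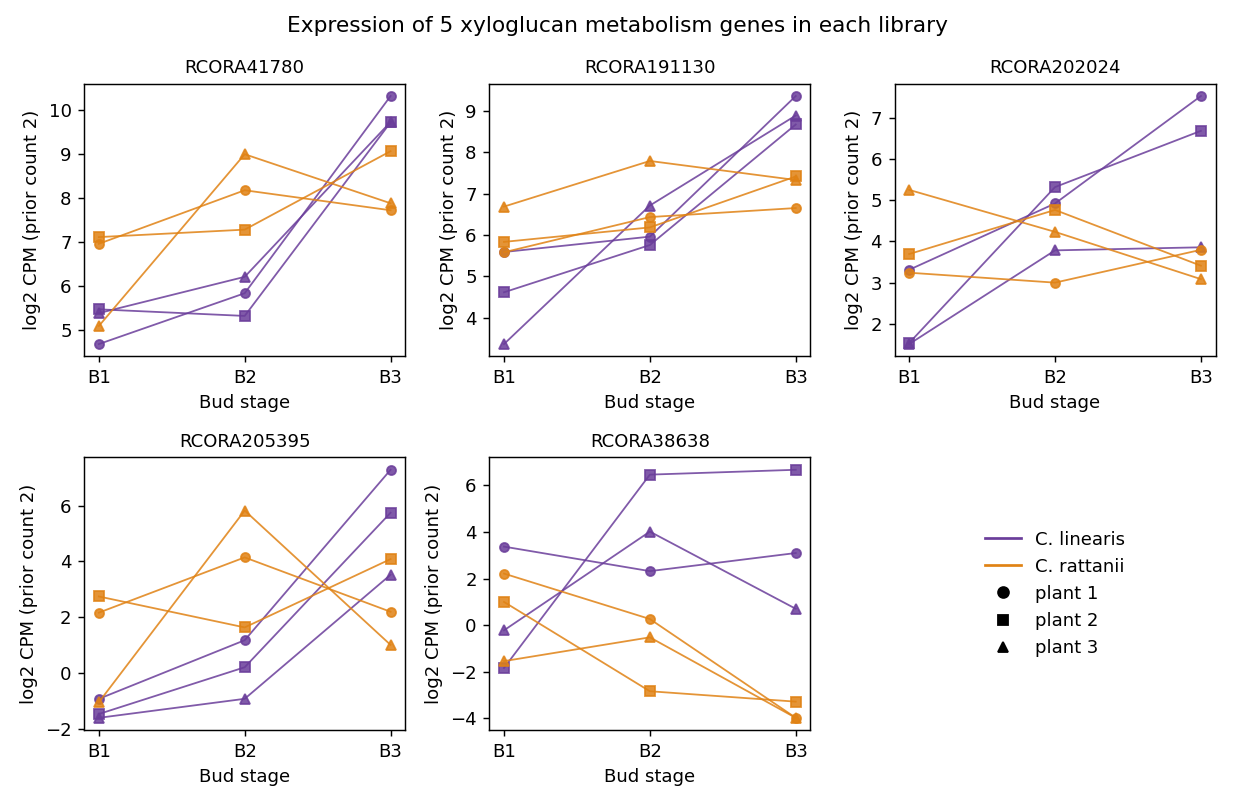
Expression of each gene in every library, as log2 CPM with a prior count of 2 (vertical axis), by bud stage (horizontal axis); lines join the 3 libraries of a plant, purple for *C. linearis* and orange for *C. rattanii*, with a marker per plant. In the first 4 panels all 3 *C. linearis* lines end higher at B3 than at B1, while *RCORA38638* differs most between plants and reaches the bottom of its axis in *C. rattanii* at B3.

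*RCORA41780* had the most even response among the *C. linearis* plants. In plants 1 to 3 it stood at 25.7, 44.5 and 41.9 CPM at B1, at 57.3, 40.1 and 74.2 CPM at B2, and at 1270, 841 and 846 CPM at B3. Every B3 library was far above every B1 and B2 library, and B1 and B2 overlapped. In *C. rattanii* plants 1 to 3 it stood at 125, 139 and 34.2 CPM at B1, at 289, 156 and 509 CPM at B2, and at 211, 534 and 236 CPM at B3. Here the B2 and B3 libraries overlapped, and both lay above all B1 libraries. By mean level the order was *C. linearis* B3 (986 ± 247 CPM; SD, n = 3 plants), *C. rattanii* B3 (327 ± 180), *C. rattanii* B2 (318 ± 179), *C. rattanii* B1 (99.1 ± 56.7), *C. linearis* B2 (57.2 ± 17.0) and *C. linearis* B1 (37.4 ± 10.2). Among neighbours in that order, only *C. linearis* B3 from *C. rattanii* B3, and *C. rattanii* B2 from its B1, were separated without overlap.

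*RCORA191130* also had its highest *C. linearis* levels at B3. In *C. linearis* plants 1 to 3 it stood at 48.1, 24.5 and 10.2 CPM at B1, at 62.3, 54.1 and 105 CPM at B2, and at 657, 408 and 474 CPM at B3. Each plant was higher at each later stage, and the 3 stages did not overlap. In *C. rattanii* plants 1 to 3 it stood at 47.9, 57.0 and 103 CPM at B1, at 86.5, 72.7 and 221 CPM at B2, and at 101, 171 and 161 CPM at B3. The 3 *C. rattanii* stages overlapped, and the *C. linearis* B3 libraries lay above all other libraries of the series. The mean was 513 ± 129 CPM in *C. linearis* at B3 (SD, n = 3 plants), next to 144 ± 38.0 CPM in *C. rattanii* at B3. All groups below these overlapped with their neighbour in the order, from *C. rattanii* B2 (127 ± 82.2 CPM) through *C. linearis* B2 (73.8 ± 27.3) and *C. rattanii* B1 (69.3 ± 29.6) to *C. linearis* B1 (27.6 ± 19.1).

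*RCORA202024* rose in all *C. linearis* plants but to very different levels. In plants 1 to 3 it stood at 9.86, 2.82 and 2.77 CPM at B1, at 30.3, 40.0 and 13.7 CPM at B2, and at 186, 104 and 14.4 CPM at B3. In plant 3 nearly all of the increase lay before B2, with 13.7 CPM at B2 and 14.4 CPM at B3. In *C. rattanii* plants 1 to 3 it stood at 9.38, 12.9 and 38.2 CPM at B1, at 7.93, 27.2 and 18.8 CPM at B2, and at 13.8, 10.6 and 8.41 CPM at B3. Its highest *C. rattanii* library was thus the B1 library of plant 3, and the *C. rattanii* group means stood in the reverse order of the *C. linearis* means, at 20.1 ± 15.7, 17.96 ± 9.66 and 10.9 ± 2.73 CPM from B1 to B3 (SD, n = 3 plants). In *C. linearis* they were 5.15 ± 4.08, 28.0 ± 13.3 and 101 ± 86.0 CPM. In the order of all 6 group means, every group overlapped with its neighbour.

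*RCORA205395* had the largest fitted change of the 5 in *C. linearis*. In *C. linearis* plants 1 to 3 it had 15, 11 and 7 counts at B1 (0.464, 0.298 and 0.265 CPM), 89, 25 and 17 counts at B2 (2.199, 1.09 and 0.464 CPM) and 3828, 914 and 328 counts at B3 (156, 53.6 and 11.4 CPM). It went from at most 15 counts to at least 328 in every plant, and the plants differed widely at B3. In *C. rattanii* plants 1 to 3 it stood at 4.42, 6.65 and 0.421 CPM at B1, at 17.6, 3.05 and 56.6 CPM at B2, and at 4.52, 16.9 and 1.95 CPM at B3. The *C. rattanii* plants did not share a course: plants 1 and 3 peaked at B2 and plant 2 had its lowest level there. In the order of group means, from 73.7 ± 74.3 CPM in *C. linearis* at B3 (SD, n = 3 plants), through *C. rattanii* B2 (25.8 ± 27.7), B3 (7.80 ± 8.002) and B1 (3.83 ± 3.15), to *C. linearis* B2 (1.25 ± 0.878) and B1 (0.342 ± 0.106), only the last pair did not overlap, and that by less than the printed digits show, with 17 counts in the lowest B2 library and 15 in the highest B1 library.

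*RCORA38638* did not follow the other 4 genes. In *C. linearis* plants 1 to 3 it had 334, 8 and 21 counts at B1 (10.3, 0.217 and 0.796 CPM), 200, 2022 and 592 counts at B2 (4.94, 88.3 and 16.2 CPM) and 209, 1739 and 45 counts at B3 (8.52, 102 and 1.57 CPM). Plant 2 went from the lowest level of the 3 to the highest, plant 1 stayed between 4.94 and 10.3 CPM, and plant 3 peaked at B2. In *C. rattanii* plants 1 to 3 it had 162, 66 and 10 counts at B1, 35, 3 and 22 counts at B2, and 0, 1 and 0 counts at B3. At B3 it was thus at the limit of detection in *C. rattanii* and not in *C. linearis*. The pooled *C. rattanii* level at B1 was 204 times that at B3, with an exact 95% binomial interval of 36.3 to 8097 that covers counting error only, because the B3 level rests on 1 count.

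**Figure D2:**
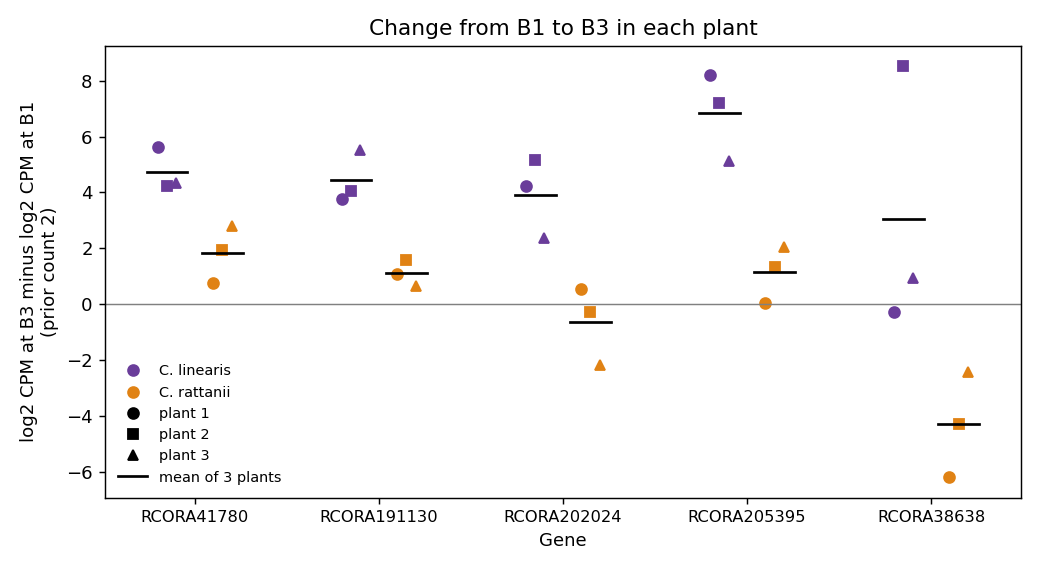
Log2 CPM at B3 minus log2 CPM at B1 (vertical axis; prior count of 2) for each gene (horizontal axis), with a marker per plant, purple for *C. linearis* and orange for *C. rattanii*, and a black bar at the mean of 3 plants. For the first 4 genes every *C. linearis* plant lies above every *C. rattanii* plant of the same gene. The study chose the genes on a species difference in stage change, and this pattern was not counted over all tested genes. For *RCORA38638*, *C. linearis* plant 2 lies far above the rest, and all 3 *C. rattanii* plants are below 0.

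The first comparison asks how the genes changed over bud development within the outcrosser. Between the first and last stage, the log2 level gained 4.72 ± 0.62 (standard error) in *RCORA41780* (FDR 0.00117), 4.22 ± 0.60 in *RCORA191130* (FDR 0.00184), 4.30 ± 0.90 in *RCORA202024* (FDR 0.00793) and 7.73 ± 1.51 in *RCORA205395* (FDR 0.00599) by the quasi-likelihood F-test of edgeR. These are 4 of 5 genes at a false discovery rate (FDR, Benjamini-Hochberg over all tested genes) of 0.01, the study's threshold, where 2.16% of all tested genes were called higher at B3. The change of *RCORA38638* was 3.302 (standard error 1.63, FDR 0.196). The median change of the 5 genes was 4.30, against -0.03 over all tested genes. Of all tested genes, 0.323% had a larger upward change than *RCORA205395*. In *RCORA41780*, *RCORA191130*, *RCORA202024* and *RCORA205395* all B3 libraries lay above all B1 libraries, a pattern found in 15% of all tested genes, and the last 3 of these rose at both steps in every plant, as 3.87% did. With library totals in place of TMM the calls over all genes split into 220 higher and 568 lower, against 600 and 593, and the median change of all genes moved to -0.42. The 5 genes had fitted changes above 0 under both. The study's choice of these genes for a species-specific stage change favors genes of this kind, so the counts are not independent evidence of a rise.

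The calls in *C. linearis* differed in how well they held. *RCORA41780* and *RCORA191130* each had an FDR under 0.01 in 22 of 24 leave-outs of a library or plant, *RCORA205395* in 15 and *RCORA202024* in 9. With the plant as a block, 2 of the 5 genes passed, *RCORA41780* (FDR 0.0065) and *RCORA191130* (FDR 0.00483), while *RCORA202024* (FDR 0.0125) and *RCORA205395* (FDR 0.0177) missed the threshold with changes of 3.98 and 7.22. Leaving out plant 2 of *C. linearis* at B1 or all libraries of plant 1 gave a count of 1, and without all libraries of plant 2 it was 0. It was 2 without the B1 library of plant 3, the B3 library of plant 1, the B3 library of plant 2 or all libraries of *C. rattanii* plant 1. Calls over all genes, 1193 with every library, fell in the same refits. They were 64, 414 and 2 in those of the first sentence and 160 to 282 in those of the second. *RCORA202024* also missed with library totals (FDR 0.0122) and with no filter on low counts (FDR 0.0107). The sizes moved less: across the 24 leave-outs, the change lay between 4.29 and 5.01 for *RCORA41780*, 3.82 and 4.90 for *RCORA191130*, 3.50 and 5.20 for *RCORA202024*, and 6.54 and 8.23 for *RCORA205395*. That of *RCORA38638* lay between -0.13 and 6.70, and it was -0.13 without all libraries of plant 2. Without the B2 and B3 libraries of plant 2, the pair whose scaling stood apart, the changes of *RCORA41780*, *RCORA191130*, *RCORA202024* and *RCORA205395* were 4.88, 4.39, 4.31 and 7.95, and the count was 2, with FDR 0.0253 for *RCORA202024* and 0.0175 for *RCORA205395*.

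The B1 to B3 change was then divided into its late and early steps, which were not tested against each other. From B2 to B3 in *C. linearis*, *RCORA41780* had a log2 change of 4.11 (standard error 0.60, FDR 0.0133), *RCORA205395* one of 5.87 (1.37, FDR 0.0321), *RCORA191130* of 2.80 (0.57, FDR 0.022) and *RCORA202024* of 1.86 (0.81, FDR 0.205) in edgeR's quasi-likelihood F-test. None of the 5 passed FDR 0.01 there, where 0.018% of all tested genes were called higher (5 higher and 3 lower, or 8 and 29 with library totals), and 4 of 5 had an unadjusted p under 0.05, as 21.2% of all tested genes did. DESeq2's Wald test called 3 of them, *RCORA41780* (FDR 4.68e-11), *RCORA191130* (FDR 4.21e-05) and *RCORA205395* (FDR 6.32e-06), among 598 genes it called higher. With library totals in place of TMM, and on leaving out plant 1 of *C. linearis* at B1, its B2 library of plant 3 or the *C. rattanii* B1 library of plant 3, 1 gene passed in edgeR, *RCORA41780* (FDR 0.00939, 0.00509, 0.00571 and 0.00644). *RCORA38638* changed by 0.03 (standard error 1.49), and the sign of this value turned with the scaling.

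In the early step, from B1 to B2, the log2 changes were 0.61 for *RCORA41780*, 1.42 for *RCORA191130*, 2.44 for *RCORA202024* and 1.86 for *RCORA205395*, with standard errors of 0.53, 0.54, 0.83 and 1.25. None of the 5 passed FDR 0.01 by edgeR's F-test (0.00359% of all tested genes were called higher), 2 had an unadjusted p under 0.05 (19% of all tested genes), and DESeq2's Wald test called none. *RCORA38638* changed by 3.27 (standard error 1.63, FDR 0.286). The fitted change was larger in the early step than in the late step for *RCORA202024* and *RCORA38638*, and smaller for the other 3 genes. Whether the genes differ from one another in the timing of their rise was not tested.

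The same changes were then examined in the selfer. From B1 to B3 in *C. rattanii*, the log2 change was 1.72 for *RCORA41780* (standard error 0.54, FDR 0.272), 1.06 for *RCORA191130* (0.53, FDR 0.61), -0.88 for *RCORA202024* (0.79, FDR 0.883) and 1.02 for *RCORA205395* (1.13, FDR 0.936) in edgeR's quasi-likelihood F-test. None of the 5 passed FDR 0.01, where 0.0144% of all tested genes were called, and 2 had an unadjusted p under 0.05 (8.95% of all tested genes). These were *RCORA41780* and *RCORA38638* (FDR 0.333). DESeq2's Wald test called 1 of the 5, *RCORA38638* (FDR 0.00708), which was lower at B3, among 291 genes. A near-empty result was also the background here: 0% of all tested genes were called by edgeR from B1 to B2 and 0% from B2 to B3, and none of the 5 genes was called there by edgeR or DESeq2. At an unadjusted p under 0.05 there were 2 of the 5 in the first of these steps and 0 in the second, against 5.3% and 6.68% of all tested genes. All *C. rattanii* B3 libraries lay above all B1 libraries for 1 gene, *RCORA41780*, as for 9.63% of all tested genes, and none of the 5 rose at both steps in all 3 plants, as 0.841% did.

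The stage of the highest level was then counted plant by plant. Of the 15 combinations of gene and plant in *C. linearis*, 13 were highest at B3, 1 at B2 and 1 at B1, and the 2 exceptions were both *RCORA38638*. In *C. rattanii*, 7 of 15 were highest at B2, 5 at B3 and 3 at B1. From B2 to B3, the level was higher in 14 of 15 combinations in *C. linearis* and in 5 of 15 in *C. rattanii*. The B2 library of *C. rattanii* plant 3 held the highest *C. rattanii* level of *RCORA191130* (221 CPM) and *RCORA205395* (56.6 CPM) and the second highest of *RCORA41780* (509 CPM, after 534 CPM in plant 2 at B3). Combinations of 1 plant share their libraries, and the study chose the genes for a stage change that differed between the species. These counts are therefore a description, and the same counts were not made over all tested genes.

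**Figure D3:**
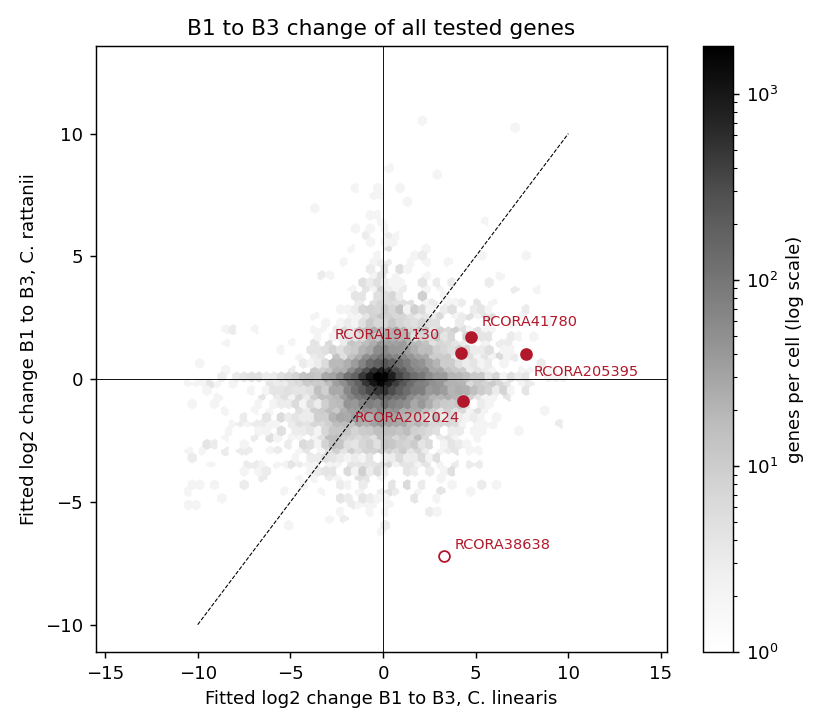
Fitted log2 change from B1 to B3 in *C. linearis* (horizontal axis) and in *C. rattanii* (vertical axis) for the 27837 tested genes, shaded by the number of genes per cell on a log scale, with the 5 xyloglucan metabolism genes in red; the dashed line marks equal changes. The 5 genes lie to the right of it, 4 of them at changes of 4.22 to 7.73 in *C. linearis* and -0.88 to 1.72 in *C. rattanii*; the open symbol, *RCORA38638*, rests on 1 count in *C. rattanii* at B3.

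The difference between the species in the B1 to B3 change is the quantity on which the study chose the genes, and its values are given without a test. The change in *C. linearis* exceeded that in *C. rattanii* by 3.00 on the log2 scale for *RCORA41780*, 3.16 for *RCORA191130*, 5.18 for *RCORA202024* and 6.71 for *RCORA205395*. The sign of the gap was shared by all 5 genes and by 48.8% of all tested genes. In the late step the gap was 4.07, 2.61, 2.57 and 7.59 for these 4 genes, and in the early step it was -1.07, 0.55, 2.61 and -0.89. For *RCORA41780* and *RCORA205395*, the fitted change from B1 to B2 was therefore larger in *C. rattanii* and only the late step was larger in *C. linearis*.

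The change averaged over the species is not the quantity of that choice, since it takes the sum of both species' changes and not their difference. Independence from the choice is not complete where the species' changes differ in precision, as for *RCORA205395* (standard errors 1.51 and 1.13), or where the choice favors genes of low spread. From B1 to B3 the mean of both species' changes was 3.22 for *RCORA41780* (standard error 0.41, FDR 0.000936) and 2.64 for *RCORA191130* (0.40, FDR 0.002) in edgeR's quasi-likelihood F-test. It was 4.38 for *RCORA205395* (0.92, FDR 0.0108) and 1.71 for *RCORA202024* (0.57, FDR 0.0829), and *RCORA38638* had FDR 0.503. The 2 genes that passed are 2 of 5, where 0.952% of all tested genes were called higher at B3. In both, the change in *C. linearis* was the larger part of the mean. It was 4.72 against 1.72 in *C. rattanii* for *RCORA41780* and 4.22 against 1.06 for *RCORA191130*. The *C. rattanii* changes did not pass (FDR 0.272 and 0.61 by the same test). The 2 calls are therefore not evidence separate from the *C. linearis* rise, which the study's choice of genes favors. The median of the 5 genes was 2.64, against -0.04 over all tested genes. Library totals split the calls over all genes into 110 higher and 440 lower, against 265 and 401, and put the median of all genes at -0.25. With the plant as a block the same 2 genes passed (FDR 0.00755 and 0.00465), and DESeq2, which called 1140 genes higher, added *RCORA205395* (FDR 5.6e-07). Without all libraries of *C. linearis* plant 2, *C. rattanii* plant 1 or *C. rattanii* plant 2, none of the 5 passed, with FDR between 0.0101 and 0.0241 for these 2 genes. Over all genes, 34, 14 and 14 were called in these refits, against 666 with every library. Leaving out plant 2 or plant 3 of *C. rattanii* at B2, *RCORA205395* passed as well (FDR 0.00859 and 0.0091), giving a count of 3.

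The last comparison asks how the levels of the species differed at each stage. At B1 the fitted level in *C. linearis* was below that in *C. rattanii* for 4 genes, with log2 differences of -1.41 for *RCORA41780* (standard error 0.54, FDR 0.0616), -1.33 for *RCORA191130* (0.54, FDR 0.0759), -1.97 for *RCORA202024* (0.82, FDR 0.0831) and -3.46 for *RCORA205395* (1.28, FDR 0.0549). None passed FDR 0.01 by edgeR's F-test, where 15.7% of all tested genes were called, 4 had an unadjusted p under 0.05 (41.8% of all tested genes), and DESeq2's Wald test called 1, *RCORA205395* (FDR 0.007), among 7228 genes. None of the 5 had all *C. rattanii* B1 libraries above all *C. linearis* B1 libraries, as 25.1% of all tested genes did. For *RCORA41780* and *RCORA205395* the overlap came from *C. rattanii* plant 3, at 34.2 and 0.421 CPM, and the other *C. rattanii* plants lay above all *C. linearis* plants.

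At B2, *RCORA41780* was 5.56-fold higher in *C. rattanii* (log2 difference, *C. linearis* minus *C. rattanii*, -2.48; standard error 0.56, FDR 0.00401), the 1 gene of the 5 to pass, where 20% of all tested genes were called. *RCORA205395* differed by -4.35 (standard error 1.28, FDR 0.0168), and for both genes all *C. rattanii* B2 libraries lay above all *C. linearis* B2 libraries, as for 22.5% of all tested genes. *RCORA38638* differed in the other direction by 5.89 (1.86, FDR 0.0237), and *RCORA191130* and *RCORA202024* by -0.78 (0.53, FDR 0.254) and 0.64 (0.79, FDR 0.535). DESeq2's Wald test called these first 3, with FDR 4.16e-05, 0.000287 and 0.000306, among 8921 genes. The call of *RCORA41780* was lost without the B2 and B3 libraries of *C. linearis* plant 2 (FDR 0.0243) and in 7 of 24 leave-outs: without the *C. linearis* B2 library of plant 1 (FDR 0.0157) or plant 2 (FDR 0.0221), the *C. rattanii* B2 library of plant 3 (FDR 0.019), or all libraries of any *C. linearis* plant (FDR 0.0194, 0.0327 and 0.0122) or of *C. rattanii* plant 1 (FDR 0.0168).

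At B3 the fitted level in *C. linearis* was above that in *C. rattanii* for all 5 genes. The log2 difference was 1.59 for *RCORA41780* (standard error 0.54, FDR 0.0369), 1.83 for *RCORA191130* (0.54, FDR 0.0207), 3.21 for *RCORA202024* (0.85, FDR 0.0121) and 3.24 for *RCORA205395* (1.204, FDR 0.0529). The 1 gene past FDR 0.01 in edgeR's quasi-likelihood F-test was *RCORA38638* (FDR 0.00588), where 15% of all tested genes were called (1934 higher and 2234 lower in *C. linearis*, or 1271 and 2224 with library totals, which put the median of all genes at -0.40), with 209, 1739 and 45 counts in *C. linearis* against 0, 1 and 0 in *C. rattanii*. DESeq2's Wald test called all 5, with FDR between 1.3e-08 and 0.00976, among 7631 genes. For 4 of the 5 genes, all but *RCORA205395*, the *C. linearis* libraries lay above all *C. rattanii* libraries at B3, as for 24.2% of all tested genes. The call of *RCORA38638* was lost in limma-voom with the plant as a block (FDR 0.0682), without the B2 and B3 libraries of *C. linearis* plant 2 (FDR 0.0164) and in 8 of 24 leave-outs: without the *C. linearis* B3 library of plant 2, any *C. rattanii* B3 library, all libraries of *C. linearis* plant 2 or all libraries of any *C. rattanii* plant (FDR 0.0118 to 0.0461). The limma-voom fit changed the method as well as adding the block, and its plant correlation was 0.0122. *RCORA202024* passed in 3 leave-outs, on leaving out plant 1 of *C. linearis* at B1 (FDR 0.00884), its B3 library of plant 3 (FDR 0.00279) or all libraries of plant 3 (FDR 0.00243).

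**Figure D4:**
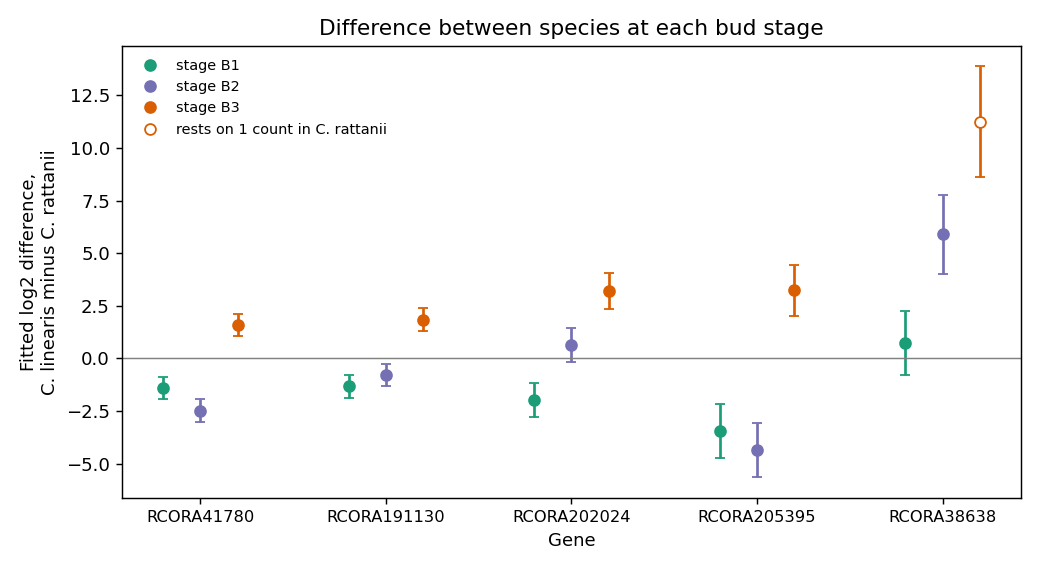
Fitted log2 difference in level, *C. linearis* minus *C. rattanii* (vertical axis), for each gene (horizontal axis) at stages B1, B2 and B3, with bars of 1 standard error; the open symbol rests on 1 count in *C. rattanii*. For *RCORA41780*, *RCORA191130* and *RCORA205395* the points lie below 0 at B1 and B2 and above 0 at B3.

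Averaged over the 3 stages, a measure other than the one the study chose on, the species differed in 1 of the 5 genes, against 43.5% of all tested genes (6173 higher and 5929 lower in *C. linearis*, or 4367 and 6313 with library totals, which put the median of all genes at -0.23). This gene was *RCORA38638* (FDR 0.000679 by edgeR's quasi-likelihood F-test), with 743, 3769 and 658 counts over the stages of *C. linearis* plants 1 to 3 and 197, 70 and 32 over those of *C. rattanii*. The plants of the species did not overlap in these counts, a pattern that was not counted over all tested genes. The fitted size of the difference depends on the B3 libraries with 0 counts and is not given. Its FDR was 0.0184 in limma-voom with the plant as a block (plant correlation 0.0122), 0.0225 with counts summed per plant and 0.0112 without all libraries of *C. rattanii* plant 2, so the call was lost there. For the others the average difference, *C. linearis* minus *C. rattanii*, was -0.76 for *RCORA41780* (standard error 0.31, FDR 0.0446), -0.09 for *RCORA191130* (0.30, FDR 0.81), 0.63 for *RCORA202024* (0.46, FDR 0.252) and -1.52 for *RCORA205395* (0.67, FDR 0.0653). With counts summed per plant the sign turned for *RCORA41780* (0.27), *RCORA191130* (0.62) and *RCORA205395* (0.61). Without the *C. rattanii* B1 library of plant 3, *RCORA41780* passed as well (FDR 0.00921), giving a count of 2.

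The genes also differed in how far plants of a group spread. The SD of log2 CPM between plants within a stage, pooled over the stages of *C. linearis*, was 0.41 for *RCORA41780*, 0.74 for *RCORA191130*, 1.35 for *RCORA202024*, 1.27 for *RCORA205395* and 2.61 for *RCORA38638*, with a median of 0.54 over all tested genes. In *C. rattanii* it was 0.92, 0.65, 0.83, 1.92 and 1.46 in the same order, with a median of 0.44. *RCORA41780* was thus steadier than the median gene among *C. linearis* plants, where 35.9% of genes had a smaller spread, and more variable than most among *C. rattanii* plants, where 81.8% did. *RCORA38638* and *RCORA205395* stood high in both species, above 97.7% and 85.2% of genes in *C. linearis* and above 93.2% and 96.7% in *C. rattanii*. Whether the spread differs between the species was not tested for single genes.

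The profiles of the 5 genes were compared by the root mean square (RMS) difference of their log2 CPM over the 18 libraries, with each gene centered on its own mean. The libraries share plants and scaling, so the values are a description. *RCORA41780* and *RCORA191130* were the closest pair, at an RMS difference of 0.96 log2 units. From *RCORA205395*, *RCORA41780* was the third closest of all tested genes, at 1.25, where the median gene was at 2.78. From *RCORA191130*, *RCORA202024* lay at 1.16, rank 635, where the median gene was at 1.69. *RCORA205395* lay farther than the median gene from *RCORA202024* (2.19, rank 21685, median 1.74) and from *RCORA191130* (1.77, rank 16119). *RCORA41780* lay about at the median from *RCORA202024* (1.75, rank 14181). A rank depends on the gene it is taken from. Taken from *RCORA205395*, *RCORA191130* ranked 58 and *RCORA202024* 560, and taken from *RCORA41780*, *RCORA202024* ranked 7026. In the *C. rattanii* libraries alone, *RCORA41780* and *RCORA191130* lay 0.95 apart. That was rank 18185 taken from *RCORA191130* (median gene 0.84) and rank 1781 taken from *RCORA41780* (median gene 1.24). *RCORA38638* lay at 2.82 to 3.92 from the 4 others, and the median gene was at 3.29 from it. *RCORA202024* was closer to it than the median gene (rank 4427), and the others ranked 15429 to 24075. Taken from each of the 4 others, *RCORA38638* ranked 25469 to 27123. Outside the 5, the genes nearest to their mean profile were *RCORA119698*, at 0.50, and *RCORA150941*, at 0.64. The 5 genes themselves lay farther from that mean, from 0.89 (*RCORA191130*, rank 72) to 2.67 (*RCORA38638*, rank 24943). It is thus not a profile that all 5 share. *RCORA119698* stood at 23.6 ± 12.2, 80.1 ± 29.3 and 383 ± 150 CPM in *C. linearis* from B1 to B3 and at 58.9 ± 33.2, 172 ± 129 and 45.7 ± 13.6 CPM in *C. rattanii* (SD, n = 3 plants). *RCORA150941* stood at 2.33 ± 0.965, 8.42 ± 4.97 and 50.2 ± 16.3 CPM in *C. linearis* and at 8.22 ± 1.55, 25.6 ± 20.1 and 7.34 ± 3.36 CPM in *C. rattanii*. Both had their *C. linearis* maximum at B3 and their *C. rattanii* maximum at B2.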

How the data were processed

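Per the labels and the study's methods, the authors aligned reads of poly(A)-selected, directional libraries to the *C. rattanii* genome with STAR and deposited whole-number counts per gene from featureCounts. No source used here gives how that step treated strand or reads with several matches, so near-identical gene copies could share counts. The annotation drew on *C. rattanii* RNA. Of the columns of the count table, 2 matched no sample and were not used.

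Genes were filtered with filterByExpr and tested with edgeR 4.0.16 (quasi-likelihood F-test, TMM, 6 species-by-stage groups, R 4.3.3) at FDR 0.01. Standard errors were derived from the change and its F value. Alternatives were DESeq2 1.42.0, limma 3.58.1 (voom with a plant correlation), other scalings, no filter, a plant block, counts summed per plant, and leaving out each library or plant. The code was tested on simulated data. Log2 CPM used a prior count of 2. Libraries of a group differed by far more than sampling noise (chi-square per degree of freedom 49.5 to 609).

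The labels give 3 libraries to each plant, so the numbers pair stages within a species. Deviations of same-plant libraries had a median correlation of -0.0505 (-0.45 to 0.641, 18 pairs), against 0.0152 for other plants (36 pairs).

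The 5 genes are those named throughout, and the 2 others are the genes outside the 5 nearest to their mean profile. The genes and rules were chosen with earlier results of these data known.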

Additional observations from a re-analysis of the deposited data

How the results depend on the processing

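Counts of the 5 genes past FDR 0.01 moved under these settings. With the plant as a replicate block, the count from B1 to B3 in *C. linearis* was 2 in place of 4, and in limma-voom the counts for the species difference averaged over stages and at B3 were 0 in place of 1. These fits changed no other count of these genes. The limma-voom fit changed the method as well as adding the block, and its plant correlation was 0.0122. With library totals the count from B2 to B3 in *C. linearis* was 1 in place of 0. From B1 to B3 in *C. linearis*, *RCORA202024* dropped out of edgeR's calls with library totals (FDR 0.0122) and with no filter (FDR 0.0107). DESeq2 called 3 from B2 to B3 in *C. linearis*, 1 from B1 to B3 in *C. rattanii*, and 1, 3 and 5 for the species difference at B1, B2 and B3. Its Wald test also added *RCORA205395* for the mean of both species (FDR 5.6e-07). Counts summed per plant, which weight the highest stage by construction, gave 0 for the average species difference and turned its sign for *RCORA41780* (0.27), *RCORA191130* (0.62) and *RCORA205395* (0.61). Without the B2 and B3 libraries of *C. linearis* plant 2, the count was 2 from B1 to B3 in *C. linearis* and 0 at B2 and at B3. The cause was not tested.

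Leaving out each library or plant gave 0 to 4 from B1 to B3 and 0 to 1 from B2 to B3 in *C. linearis*, 0 to 3 for the mean of both species, and 0 to 2, 0 to 1 and 0 to 2 for the species difference averaged, at B2 and at B3. Over all genes, the same leave-outs gave 2 to 1360 calls from B1 to B3 in *C. linearis* and 14 to 870 for the mean of both species. Signs turned for *RCORA38638* from B1 to B3 in *C. linearis* (-0.1324 to 6.699), from B2 to B3 (-2.887 to 1.742; -0.4121 with library totals, -0.9621 with the block, -1.059 without the B2 and B3 libraries of plant 2) and between species at B1 (-2.205 to 1.762; -0.1809 in limma-voom). They also turned for *RCORA205395* (-0.2266 to 1.682) and *RCORA202024* (-1.371 to 0.1325) from B1 to B3 in *C. rattanii*, and for *RCORA191130* in the average species difference (-0.353 to 0.2906; 0.02827 without the B2 and B3 libraries of plant 2). None of these had passed the test.

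Over all genes, 1193 were called from B1 to B3 in *C. linearis*, against 3852 in DESeq2, 788 with library totals, 333 with the block and 266 without the B2 and B3 libraries of plant 2. From B1 to B2 it was 4, against 704 in DESeq2, 9 with the block and 0 with other scalings or no filter, and from B2 to B3 it was 8, against 1500, 37 with library totals, 4 with no filter and 0 with the block. In *C. rattanii* DESeq2 called 291 from B1 to B3, 50 from B1 to B2 and 98 from B2 to B3, where edgeR called 4, 0 and 0. From B1 to B3 it was 2 with library totals and 0 with the block. For the mean of both species it was 666, against 2374 in DESeq2, 286 with the block and 340 without the B2 and B3 libraries of plant 2. For the species difference DESeq2 called 7228, 8921 and 7631 at B1, B2 and B3, against 4376, 5561 and 4168, and without the B2 and B3 libraries of plant 2 it was 3192 at B2 and 2370 at B3. Counts summed per plant gave 7412 in place of 12102. With a prior count of 0.5, *RCORA119698* was still nearest to the mean profile, and the second was *RCORA229236* (0.66). In the *C. linearis* libraries alone the nearest were *RCORA119698* (0.52) and *RCORA228861* (0.56), and in the *C. rattanii* libraries alone *RCORA05172* (0.18) and *RCORA35395* (0.22). At 0 to 21 counts a library, depth limits *RCORA38638* in several groups.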
